A study of Mus musculus with 4 samples.

Results

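Collagens and the other structural genes of the extracellular matrix were examined in S-180 cells, a mouse sarcoma line that is passaged as a transplantable tumour and here grew in culture. The 51 genes were taken by name: 17 collagens, 9 laminin, nidogen and perlecan genes, 12 further glycoproteins, 4 proteoglycans and 9 enzymes or chaperones that build and cross-link collagen. Of these, 50 had a probe whose RefSeq transcript matched the name, out of 23771 genes matched on the array, and Lamb1 was not analysed here. The design compared 2 untreated control samples with 2 samples treated with fluoxetine at 20 µM. Fluoxetine is an antidepressant that blocks serotonin reuptake. All 4 were cells of the same line held for 12 h in serum-containing medium, and each was hybridised to its own single-colour array. The labels call the samples biological replicates without saying whether the cultures were separate, so the p-values here rest on a spread that may be technical. All cells come from 1 line.

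Fibrillar collagens such as types I, III and V form the tensile fibres of connective tissue, while type IV collagen, laminins, nidogens and perlecan form the sheet-like basement membrane. Collagen chains are hydroxylated on proline and lysine in the endoplasmic reticulum, fold as triple helices, leave the cell and are cross-linked outside it by lysyl oxidases. Glycoproteins such as fibronectin and fibrillin and the small proteoglycans biglycan, decorin and lumican organise these fibres. Fibroblasts and many sarcomas make much of this matrix.

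Much of this matrix programme was too dim to measure in these cells. A gene counted as well above background on an array when any of its probes carried that mark from the scanner software. By this measure 22 of the 50 genes (44.0%) were well above background on all 4 arrays, against 53.6% of all matched genes, and 21 were on none. Those 21 were Col3a1, Col5a2, Col4a1, Col4a2, Col4a5, Col6a2, Lama1, Lama4, Nid2, Fbln1, Fbln5, Thbs1, Thbs2, Tnc, Postn, Dcn, Lum, Lox, Loxl1, Loxl3 and Serpinh1. Their probes read between 3.76 and 22.3 with a median of 5.16, in units of signal scaled so that the 75th percentile over probes was the same on every array. The lowest scaled signal that carried the mark was 15.5 to 20.3, depending on the array, and some of these probes read above it without the mark. None of the 21 genes was tested. A dim probe does not show that a transcript is absent.

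**Figure D1:**
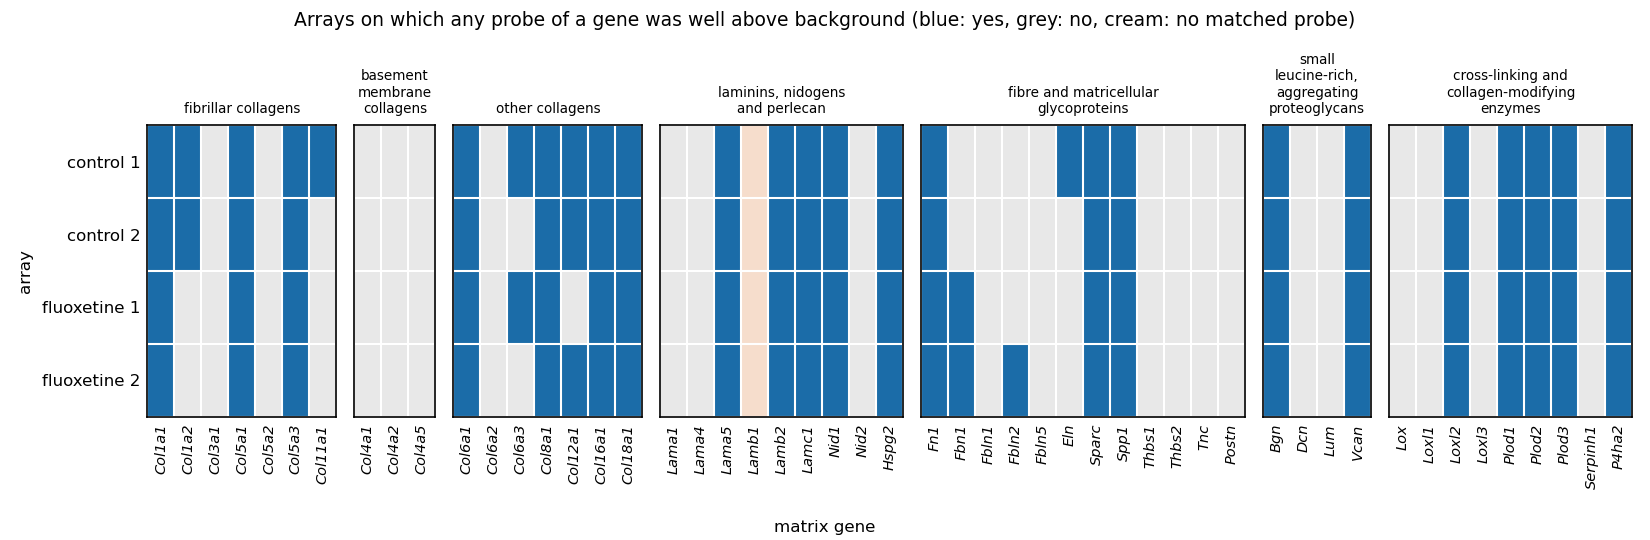
Each column is a matrix gene, each row an array, and blue marks an array on which any probe of the gene was well above background. Of 50 genes with a probe, 22 are blue on all 4 arrays and 21 on none, and all 3 type IV collagen genes are grey throughout.

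The remaining genes were marked on some arrays. Col1a2 carried the mark in control only (2 of 2 arrays, against 0 of 2 with fluoxetine), and Fbn1 with fluoxetine only. Col12a1 carried the mark on both control arrays and on fluoxetine 2. Col11a1, a minor fibrillar collagen of cartilage, read 40.3 on control 1 and 4.44 to 4.87 on the other arrays. Eln, which encodes elastin, read 32.8 on control 1 and 4.91 to 7.30 elsewhere. For both genes a single control array stood apart, and no change was tested.

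A gene was tested when a probe carried the mark on 2 of 2 arrays in control, with fluoxetine or in both, and it is said to have risen or fallen where limma gave an adjusted p under 0.05. Of the 25 matrix genes tested, 6 rose, 4 fell and 15 did not pass. The risers were Plod1, Plod2, Plod3, Col6a1, Col18a1 and Fbn1, and the fallers Col1a1, Col1a2, Col16a1 and Sparc. That is 40.0% of the tested matrix genes, against 27.0% of all 13539 genes tested. By direction, 24.0% rose and 16.0% fell, against 16.8% and 10.2% of all genes. The median log2 change of the 25 genes was −0.01, also with Col1a2 and Fbn1 set to their bounds, and that of all genes was 0.06. Control and fluoxetine values lay apart, with no overlap, in 19 of the 25 (76.0%), against 72.5% of all genes. Changes were positive in 12 of the 25 genes and negative in 13.

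Calls moved with single arrays. Leaving out control 1 left 2 of the 10 calls, Col1a2 and Fbn1, and leaving out control 2 left 6 of the 10 and added Bgn. Without fluoxetine 1 or without fluoxetine 2, limma called 0 matrix genes and 0 genes in all, with 11 and 13 matrix genes at an unadjusted p under 0.05. Scaling each array to its median moved the median change of all genes by 0.21 and called 11 matrix genes higher and 3 lower. Under that scaling 87.1% of all calls were higher, against 62.3%.

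**Figure D2:**
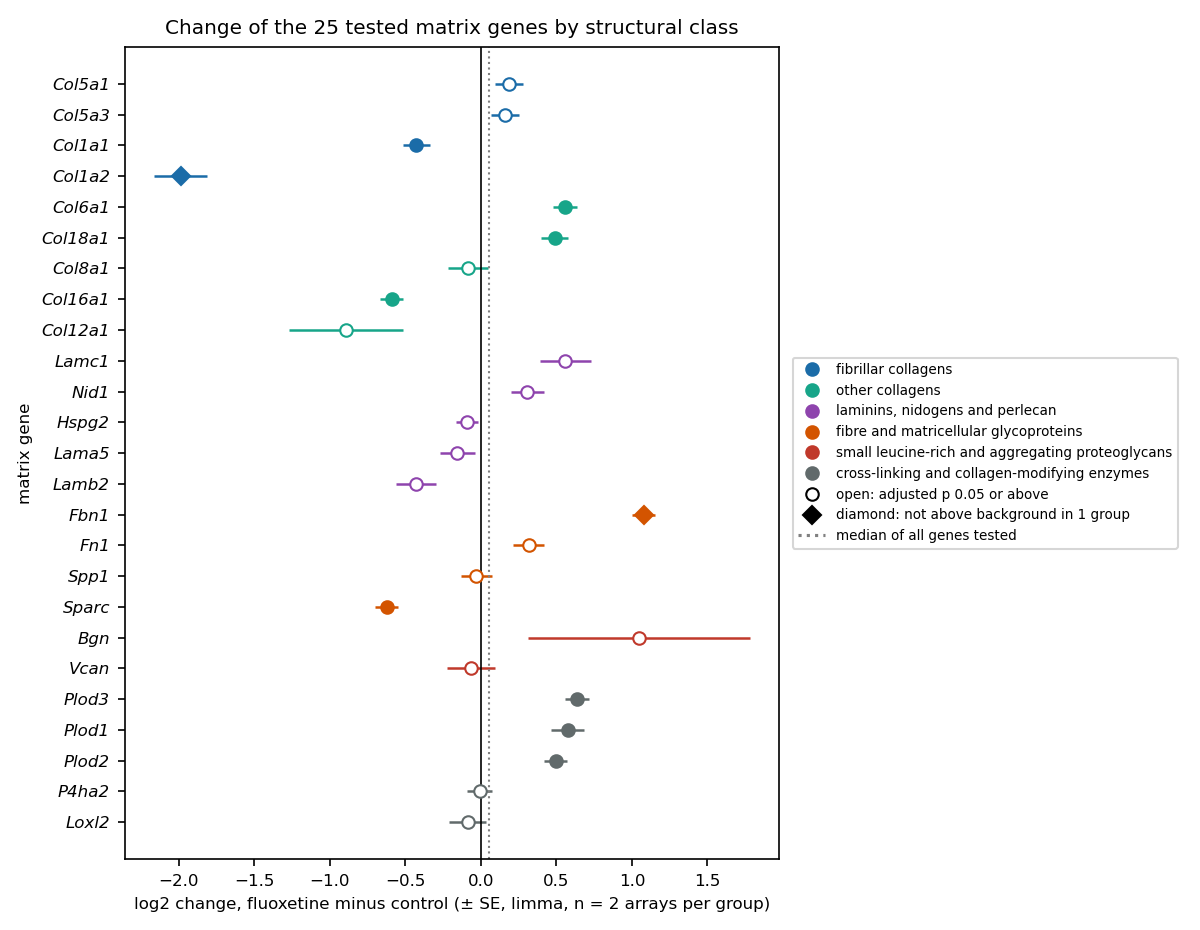
Log2 change with fluoxetine (± SE, n = 2 arrays per group) of the 25 tested matrix genes, coloured by class, filled where the adjusted p was under 0.05. The 3 Plod genes lie between 0.50 and 0.64, whereas Col1a1 and Col1a2 lie at −0.43 and −1.99, and diamonds mark the pair with only a bound.

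Of 7 fibrillar collagen genes 4 were tested: both type I collagen genes fell, and Col5a1 and Col5a3 did not pass (class median −0.13). Of all genes tested, 10.2% fell. Col1a2, the alpha 2 chain, read 49.2 and 36.1 on the control arrays and 10.9 and 10.4 with fluoxetine, below the marked range there. Both control arrays were higher than both fluoxetine arrays. Its level was at least 2.38-fold lower with fluoxetine. The adjusted p of 0.0119 from limma belongs to the fitted change of −1.99 ± 0.17, which is no more than a fitted value. With normexp background correction the change was −0.54 (adjusted p = 0.0196), smaller than that bound. In a bulk sample, fewer cells that make a transcript and less of it per cell cannot be told apart. Col1a1, the alpha 1 chain of the same collagen, read 38.9 and 42.0 in control and 31.1 and 29.0 with fluoxetine. The groups did not overlap, and the fall was 0.43 ± 0.09 on the log2 scale (adjusted p = 0.0381). That call is weak: it was lost under 6 of 11 other settings, among them quantile normalization (−0.23, adjusted p = 0.0872) and normexp background correction (−0.11, adjusted p = 0.469). A second Col1a1 probe, marked in control only, was at least 1.66-fold lower with fluoxetine by the main processing. That bound holds for the main processing only. Both type I genes were dim, and only a change of this dim signal was measured.

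Type V collagen is a minor partner of type I fibres, and its genes Col5a1 and Col5a3 were well above background on all 4 arrays, while Col5a2 was on none. Col5a1 read 324 and 360 in control and 379 and 399 with fluoxetine, a change of 0.19 ± 0.09 (adjusted p = 0.199). Its 95% interval ran from −0.07 to 0.44. Col5a3 read 913 and 1030 in control and 1098 and 1069 with fluoxetine, a change of 0.16 ± 0.09 (adjusted p = 0.265, interval −0.10 to 0.42). Both genes were slightly higher on the fluoxetine arrays, and the intervals leave out a fall of the size fitted for Col1a1. With each array scaled to its median, Col5a1 (0.40) and Col5a3 (0.37) were called higher.

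Proximal promoters of 4 matrix genes are shown because Col1a2 and Col16a1 fell and Plod1 and Plod3 rose. Each run holds the 150 bases before the annotated start, written 5′ to 3′ along the gene, from RefSeq on GRCm38.p6. Windows lie at chr6:4505468-4505617 (plus strand) for Col1a2, chr4:130047690-130047839 (plus) for Col16a1, chr4:147936777-147936926 (minus) for Plod1 and chr5:136986869-136987018 (plus) for Plod3. Capitals mark matches, on either strand, to the CCAAT box (CCAAT), the TATA box (TATAAA), the GC box (GGGCGG) and the core of the hypoxia response element (ACGTG, which is also part of the E-box CACGTG).
Col1a2: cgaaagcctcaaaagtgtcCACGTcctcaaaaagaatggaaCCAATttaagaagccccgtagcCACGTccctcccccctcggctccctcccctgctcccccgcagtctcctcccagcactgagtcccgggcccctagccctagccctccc
Col16a1: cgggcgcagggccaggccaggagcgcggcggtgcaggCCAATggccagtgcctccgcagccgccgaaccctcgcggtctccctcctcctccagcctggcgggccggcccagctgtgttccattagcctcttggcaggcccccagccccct
Plod1: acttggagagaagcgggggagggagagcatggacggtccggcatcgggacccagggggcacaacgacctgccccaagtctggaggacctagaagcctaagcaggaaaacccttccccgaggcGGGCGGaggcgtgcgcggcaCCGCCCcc
Plod3: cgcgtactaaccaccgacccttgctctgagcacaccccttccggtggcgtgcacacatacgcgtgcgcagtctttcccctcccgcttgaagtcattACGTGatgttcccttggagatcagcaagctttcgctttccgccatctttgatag

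Entries were held for 8 of the 10 called matrix genes. The windows of Col1a2 and Col16a1 each held 1 CCAAT box, at 109 and 113 bases before the start, a motif present in 24.5% of all 32843 promoter windows of this length. No CCAAT box lay in the windows of Col6a1, Col18a1, Fbn1, Sparc, Plod1 or Plod3. Plod1 held 2 GC boxes, and the first of the 2 Col18a1 windows held 3, against 28.6% of all windows with at least 1. The hypoxia core occurred in Col1a2 (2 matches) and Plod3 (1 match), genes that moved in opposite directions, and in 11.2% of all windows. No window held the TATA box, which 7.6% of all windows have. These matches describe letters in the window and say nothing of the factors that bind there.

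None of the 5 tested genes in the class of laminins, nidogens and perlecan passed in limma, though Lamc1, Lamb2 and Nid1 had an unadjusted p under 0.05. Of all genes tested, 27.0% passed. The 3 type IV collagen genes were on no array well above background. Laminins are trimers of an alpha, a beta and a gamma chain, and Lama5, Lamb2 and Lamc1 were measured, a chain of each kind. Lamc1, the common gamma 1 chain, read 3465 and 4235 in control and 6303 and 5054 with fluoxetine. Both fluoxetine arrays were higher, by 0.56 ± 0.17 (adjusted p = 0.0776), and a second probe gave 0.84 ± 0.24. Limma called Lamc1 higher under 5 of 11 other settings, with adjusted p from 0.00504 to 0.227. Lamb2, the beta 2 chain, read 97.3 and 115 in control and 73.4 and 84.2 with fluoxetine, with a change of −0.43 ± 0.13 (adjusted p = 0.081). Lama5 changed by −0.15 ± 0.11 (adjusted p = 0.35).

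Nidogen and perlecan link the laminin and collagen networks. Nid1 read 5218 and 5923 in control and 7265 and 6515 with fluoxetine, a change of 0.31 ± 0.11 (adjusted p = 0.111), but its other kept probe gave −0.04 ± 0.08. Hspg2, the perlecan gene, stayed within 1410 to 1420 in control and 1297 to 1361 with fluoxetine (−0.09 ± 0.08, adjusted p = 0.401). The brightest probes of these 5 genes did not overlap between the groups, as for 72.5% of all genes, while the other kept probes of Nid1 and Hspg2 did overlap.

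Of 5 tested collagens of other kinds, 2 rose, 1 fell and 2 did not pass. Col6a1, which encodes a chain of the beaded-filament collagen VI, rose by 0.56 ± 0.08 (adjusted p = 0.0202), from 89.9 and 89.5 to 136 and 128. Its partner chains Col6a2 and Col6a3 were not tested, as Col6a3 carried the mark on control 1 and fluoxetine 1 only. Col18a1, a basement membrane collagen whose end is released as endostatin, read 738 and 689 in control and 961 and 1042 with fluoxetine. That rise was 0.49 ± 0.09 (adjusted p = 0.0305). The groups of both genes stood clear of each other, as for 72.5% of all genes tested.

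Col16a1, a collagen that associates with fibrils, read 866 and 895 in control and 594 and 576 with fluoxetine. It fell by 0.59 ± 0.08 (adjusted p = 0.0174) and kept this call under 10 of 11 other settings, the exception being no filter on dim probes. Col12a1, another fibril-associated collagen, read 30.9 and 32.4 in control and 11.8 and 24.6 with fluoxetine (−0.89 ± 0.38, adjusted p = 0.151). Its value was −1.42 without fluoxetine 2 and −0.36 without fluoxetine 1. Col8a1, a network-forming collagen, read 6952 and 8053 in control and 7657 and 6513 with fluoxetine. Its groups overlapped (−0.08 ± 0.13, interval −0.45 to 0.28).

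**Figure D3:**
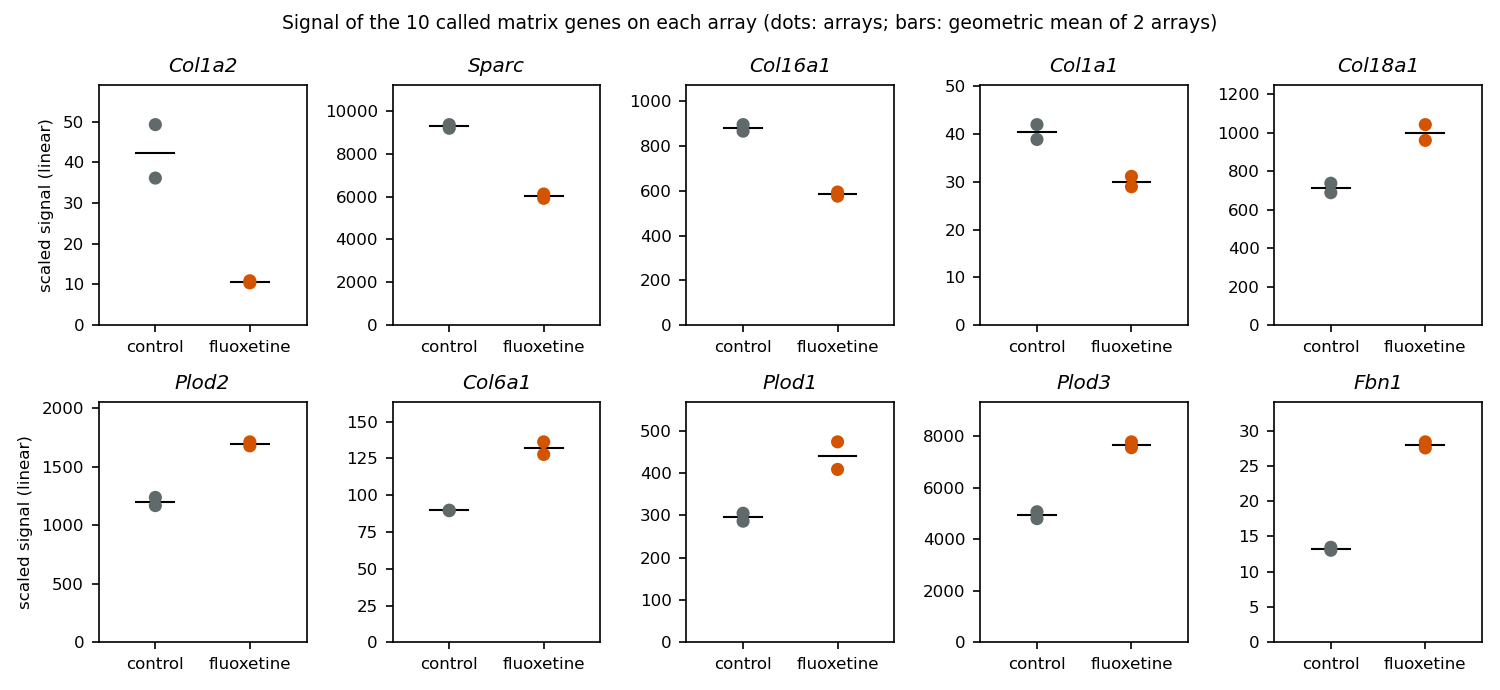
Scaled signal (linear axis from 0) of the 10 called matrix genes, with a dot for each array and a bar for the geometric mean of 2 arrays. In all 10 panels the control and fluoxetine dots stand apart, as for 72.5% of all genes tested. Col1a2 at 10.4 to 10.9 and Fbn1 at 13.0 to 13.5 are not well above background in 1 group.

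Among 12 further glycoproteins 4 were tested, of which Sparc fell, Fbn1 rose and 2 did not pass. Of all genes tested, 16.8% rose and 10.2% fell. Sparc encodes a collagen-binding matricellular protein, and its probe read 9358 and 9187 in control and 6121 and 5918 with fluoxetine. The fall was 0.62 ± 0.07 (adjusted p = 0.0162), with no overlap. The other kept Sparc probe read 1507 and 1623 in control and 1463 and 1348 with fluoxetine, a change of −0.16 ± 0.09 (adjusted p = 0.265 over kept probes). Both probes thus had the same sign but differed in size. Fbn1, the gene of the microfibril protein fibrillin-1, read 13.0 and 13.5 in control, not well above background, and 28.4 and 27.5 with fluoxetine. Its level was at least 1.40-fold higher. The adjusted p of 0.00993 from limma belongs to the fitted change of 1.08 ± 0.07, which rests on control values not well above background. With normexp background correction (0.32, adjusted p = 0.0574) or a trend in eBayes (adjusted p = 0.0772) Fbn1 was not called. The normexp change was smaller than that bound.

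Fibronectin, the cell-binding scaffold on which other matrix proteins assemble, is encoded by Fn1. Its probe read 3078 and 3471 in control and 4239 and 3905 with fluoxetine. The groups did not overlap, and the change was 0.32 ± 0.10 (adjusted p = 0.0911), called under 3 other settings. Spp1, the osteopontin gene, read 13413 and 14541 in control and 14550 and 12871 with fluoxetine, overlapping values with a change of −0.03 ± 0.10 (interval −0.31 to 0.25). Thbs1, Thbs2, Tnc and Postn, matricellular genes of wound and tumour stroma, were too dim on every array to be tested.

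The proteoglycan genes Bgn and Vcan were measured and neither passed. Bgn, the biglycan gene, read 78.9 and 328 in control, in that order, and 376 and 293 with fluoxetine. Control 1 stood apart from the other arrays. The change was 1.05 ± 0.73 (adjusted p = 0.331) over all arrays, 0.02 without control 1 and 2.07 without control 2 (adjusted p = 0.0209). Vcan, the gene of the large aggregating proteoglycan versican, is spliced into isoforms that differ in their sugar-bearing domains. Its brightest probe read 95.2 and 119 in control and 93.8 and 111 with fluoxetine (−0.06 ± 0.16, adjusted p = 0.784). A probe for the transcript NM_001081249 read 53.3 and 51.2 in control and 32.1 and 29.1 with fluoxetine. Fitted alone, that probe fell by 0.77 ± 0.09 (adjusted p = 0.0155 over 19889 kept probes), while both probes for NM_172955 did not pass.

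Of 9 collagen-modifying enzymes 5 were tested, and the 3 lysyl hydroxylase genes rose (class median 0.50), against 16.8% of all genes. Plod1, Plod2 and Plod3 encode the enzymes that hydroxylate lysines of procollagen, which then carry sugars and form cross-links. Plod3 read 4809 and 5076 in control and 7791 and 7565 with fluoxetine, a rise of 0.64 ± 0.08 (adjusted p = 0.0166). Plod1 rose by 0.57 ± 0.11 (adjusted p = 0.0319), from 286 and 305 to 473 and 408. Plod2 read 1167 and 1237 in control and 1711 and 1677 with fluoxetine, a rise of 0.50 ± 0.08 (adjusted p = 0.0237). For each of the 3 genes both fluoxetine arrays lay above both control arrays. The groups lay apart, in either direction, in 72.5% of all genes tested. The other kept Plod3 probe read 432 and 425 in control and 479 and 437 with fluoxetine, a change of only 0.09 ± 0.09.

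The other enzymes did not pass or were dim. P4ha2, a catalytic subunit of collagen prolyl 4-hydroxylase, read 2929 and 3030 in control and 3065 and 2864 with fluoxetine (−0.01 ± 0.08, interval −0.23 to 0.22). The interval leaves out a rise as large as that of any Plod gene. Loxl2, a lysyl oxidase, read 226 and 264 in control and 245 and 216 with fluoxetine (−0.09 ± 0.12, adjusted p = 0.619). Lox, Loxl1 and Loxl3, and Serpinh1, the collagen chaperone HSP47, were well above background on no array.

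Probes of the same gene did not always give the same change. In 8 matrix genes more than 1 probe was kept. Each kept probe was also fitted alone, a choice made after the data were seen, and 13 of 35 kept matrix probes passed (7 higher, 6 lower), against 27.8% of all kept probes. A second Fn1 probe rose (0.41 ± 0.08, adjusted p = 0.0336) and the third, for NM_001276413, did not pass (0.01 ± 0.19). Of the called genes with several kept probes, Col1a1 had both called lower, whereas Sparc and Plod3 each had 1 that did not pass.

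**Figure D4:**
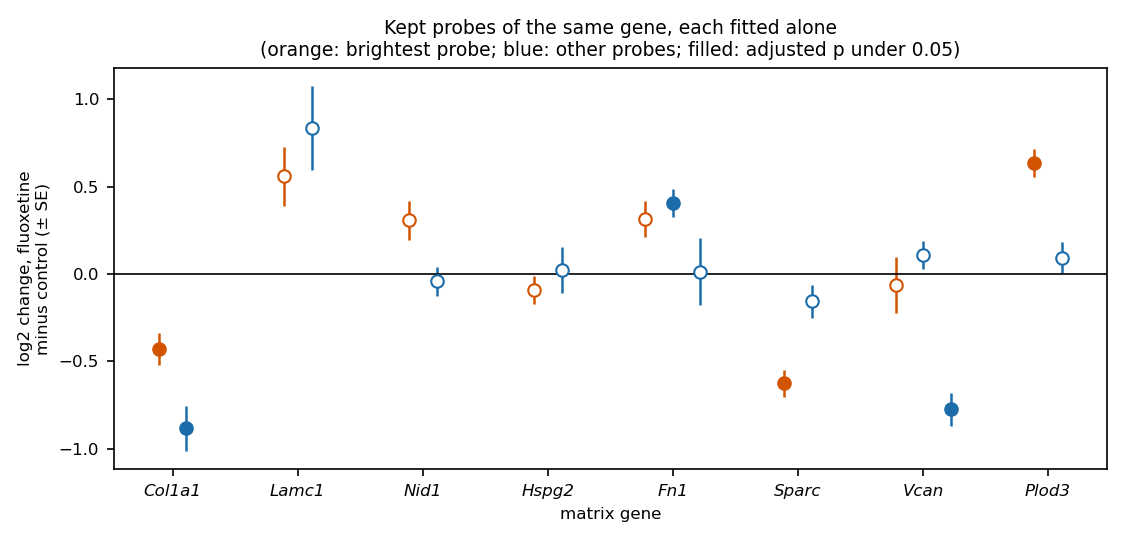
Log2 change (± SE) of each kept probe in the 8 matrix genes with more than 1, fitted alone, orange for the brightest probe and filled where the adjusted p was under 0.05. The Vcan probe at −0.77 and the Plod3 probe at 0.09 stand apart from the brightest probes of those genes at −0.06 and 0.64.

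Genes around the matrix were read from 4 lists of genes outside the 51. In procollagen folding, export and processing, 5 of 21 tested genes rose, 1 fell and 15 did not pass (list median 0.29), against 16.8% higher and 10.2% lower of all genes. P4hb, which encodes protein disulfide isomerase and the beta subunit of prolyl 4-hydroxylase, rose from 7691 and 8424 to 13733 and 12676 (0.71 ± 0.09, adjusted p = 0.0183). Tgm2, a transglutaminase, rose by 0.61 ± 0.12, P4ha1, another prolyl hydroxylase subunit, by 0.44 ± 0.09, and Pcolce, a procollagen C-proteinase enhancer, by 0.41 ± 0.09. The other kept P4ha1 probe gave 0.13 ± 0.18. Probes of Loxl4, a lysyl oxidase, disagreed. The brightest rose by 0.50 ± 0.10 and another, fitted alone, by 0.45 ± 0.08 (adjusted p = 0.0264). A dimmer probe for NM_053083, fitted alone, fell by 0.71 ± 0.11 (adjusted p = 0.022). The Loxl4 call was lost under 5 of 11 other settings, with changes down to 0.079. Tmem38b, an endoplasmic reticulum cation channel, carried no mark with fluoxetine, and its fitted change was −0.66 ± 0.08. That call was lost under 3 of 10 other settings, with changes down to −0.10. 

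Of 33 other structural matrix genes tested, 4 rose, 3 fell and 26 did not pass (list median 0.01), against the same 16.8% and 10.2% of all genes. Emilin2, an elastin microfibril interface protein, rose from 117 and 128 to 558 and 475 (2.08 ± 0.12, adjusted p = 0.00869). Lama2, a laminin alpha chain marked on 1 control array, rose by 1.26 ± 0.17, and Lamc3 by 0.48 ± 0.09. The Lamc3 call held under only 6 of 11 other settings, with changes from 0.33 to 0.70. That of Lama2 held under 9 of 10, with changes from 0.53 to 1.47. Col24a1, a fibrillar collagen not well above background in control, was at least 1.70-fold higher by the main processing. Under normexp its change was 0.39, smaller than that bound. The falls were in Col20a1 (−0.85 ± 0.08), Col7a1, the anchoring fibril collagen (−0.66 ± 0.08), and the microfibril gene Mfap5 (−0.58 ± 0.11). Probes of some uncalled genes disagreed. The brightest Col26a1 probe gave 0.30 ± 0.08, but its other kept probes, fitted alone, fell (−0.75 ± 0.12, and −0.91 ± 0.19 for the probe marked in control only). Also fitted alone, a second Thbs3 probe fell (−0.45 ± 0.08) and a second Ltbp4 probe rose (0.38 ± 0.08).

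Of 14 matrix receptor genes tested, limma called 0 higher (1 at an unadjusted p under 0.05), against 16.8% of all genes, and 2 lower. The other 12 did not pass (list median 0.09). The fallers were Itga10, a collagen-binding integrin (−0.50 ± 0.08), and Ddr1, a collagen receptor kinase (−0.30 ± 0.07, adjusted p = 0.0487), against 10.2% of all genes lower. Ddr1 lost its call under 5 of 11 other settings and with any array left out, with changes down to −0.091. These counts rest on the brightest probes. A second Ddr2 probe, fitted alone in limma, rose by 0.86 ± 0.08 (adjusted p = 0.0127), while the brightest gave 0.20 ± 0.07. A dim Sdc1 probe, fitted alone, fell by 0.53 ± 0.13 (adjusted p = 0.0487), while the brightest gave −0.03 ± 0.09. Transforming growth factor beta is a major inducer of collagen genes, and of 17 genes in its input to the matrix 3 rose, 5 fell and 9 did not pass (list median 0.11). The receptor gene Tgfbr3 (0.85 ± 0.10), the ligand gene Tgfb1 (0.69 ± 0.08) and the repressor gene Tgif1 (0.53 ± 0.10) rose. Falls included those of the inhibitory Smad7 (−1.63 ± 0.35), the matricellular target Ccn2 (−1.47 ± 0.08), the ligand gene Tgfb2 (−1.16 ± 0.14) and Ccn1 (−0.73 ± 0.07). Ligands of this family therefore moved in opposite directions, and the share of list members called (8 of 17) stood beside 27.0% of all genes. Fitted alone, dimmer probes of Smad2 (0.39 ± 0.08), Smad3 (0.59 ± 0.09) and Smad4 (0.58 ± 0.09 and 0.49 ± 0.08) rose. A dimmer Skil probe fell (−0.53 ± 0.09), and the brightest probes of these genes did not pass. Of all kept probes fitted alone, 27.8% passed.

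**Figure D5:**
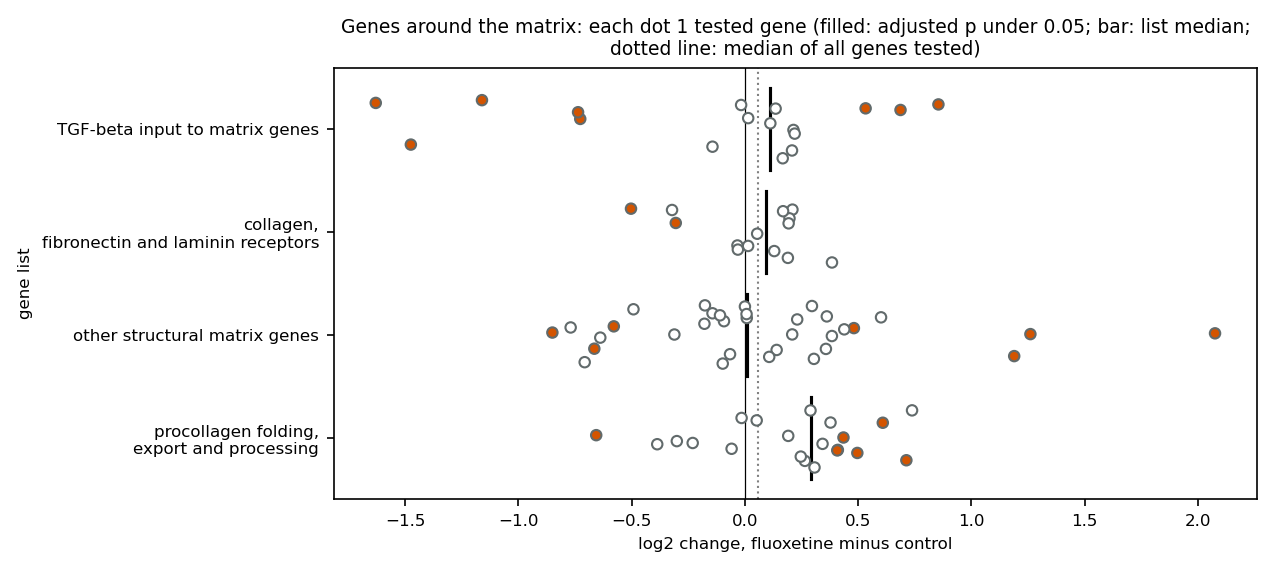
Log2 change of each tested gene in 4 lists around the matrix, filled where the adjusted p was under 0.05, with a bar at the list median and a dotted line at the median of all genes. Emilin2 at 2.08 and Smad7 at −1.63 are the outermost dots.

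The arrays were alike in quality. Between 51.7% and 53.5% of spots were well above background, none was saturated, and Pearson's r over 25833 probes was 0.993 within control, 0.995 within fluoxetine and 0.976 to 0.983 between the groups. Across probes these are not independent points. Of 10 mesenchymal markers, 7 were well above background on all arrays, among them Vim and Pdgfra, while Thy1, Pdgfrb and Fap were on none. Of 10 epithelial markers 6 were, Krt8, Krt18 and Epcam among them, while Cdh1, Cldn4 and Ovol1 were on none. Of 10 endothelial markers 2 were, Pecam1 and Tie1, and the other 8 were on none. The leukocyte genes Ptprc, Adgre1, Lyz2 and Ncr1 were on no array well above background, although the summed signal of the 10 leukocyte markers ran from 11230 to 12120 in control and from 22470 to 25690 with fluoxetine. Of the 10, 5 were well above background on all arrays: Cd68, Itgam, Csf1r, Cd3e and S100a8. Cd3e rose by 0.52 ± 0.10 (adjusted p = 0.0313), while its other kept probe gave −0.21 ± 0.18. Csf1r and S100a8 did not pass. Most of the sum was Cd68, a lysosomal protein gene, at 7962 and 8947 in control and 23891 and 20517 with fluoxetine, while the integrin gene Itgam fell by 1.96 (adjusted p = 0.00637). A dim second Itgam probe, marked with fluoxetine only, gave 0.83 ± 0.57. The epithelial keratin gene Krt14 fell by 2.15 (adjusted p = 0.00763). Epithelial sums were 91270 to 96870 and 79070 to 81090, mesenchymal sums 37980 to 43140 and 39760 to 40010, and endothelial sums 172 to 194 and 195 to 210. Their part in the matrix results was not tested.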

How the data were processed

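Per the file headers, the authors deposited spot intensity from Feature Extraction 12.1.0.3 on single-colour Agilent arrays (62976 spots, 59305 not controls), and the processed signal used here has had background removed, with no scaling between arrays. The marks for spots well above background, non-uniform, outlying or saturated, other values set by the same software, were deposited in the same tables. Later steps by the authors are not given in the sources used here. Non-uniform and outlying spots were left out (47 of 56605 probes lost), and the spots of 300 repeated probes were averaged.

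Each array's processed signal was put on the log2 scale and its 75th percentile over probes subtracted. Symbols came from the RefSeq table of GRCm38.p6 by unversioned accession: 34645 probes matched 1 symbol. A probe was kept when marked as well above background throughout control, throughout fluoxetine or both, and the brightest kept probe stood for its gene. Fluoxetine was compared with control in limma 3.58.1 (R 4.3.3; lmFit, eBayes, group as the only term), with Benjamini-Hochberg adjustment over 13539 genes. Errors are standard errors of the log2 change. An exact permutation test of 2 arrays against 2 cannot go below p = 0.333. A gene marked on neither array of 1 group has a bound: its mean in the brighter group against, per dim array, the higher of the lowest marked signal and its own. Arrays shared 1 slide and 1 scan, and position on the slide cannot be told apart from group.

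The genes, classes and 4 further lists were chosen with earlier results of these data known. Named were all called matrix genes, those with a bound, the brightest uncalled gene of each class and others as examples chosen after their values were seen. In each further list the 3 called genes with the largest change per direction were named by rule, and further ones (at most 5 per direction) after their values were seen. Some uncalled genes of these lists were named, also after their values were seen, where a probe fitted alone passed. The values of 1 gene are not reported here. The script was tested on simulated data. Alternatives covered background correction, scaling, filters, probe choice, variance trend, a replicate block and each array left out.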

Additional observations from a re-analysis of the deposited data

Results flagged for a closer look

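Fbln2, the gene of the elastic fibre protein fibulin-2, lay outside the comparison because its probe was too dim, yet it was well above background on fluoxetine 2 with a scaled signal of 68.0. It read 7.32 on fluoxetine 1 and 11.1 and 24.8 on the control arrays, none of them well above background. A signal on 1 array alone was not tested.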

How the results depend on the processing

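No called matrix gene, and none of the 23 called genes around the matrix, changed sign under any other setting it was tested in (10 or 11) or with any array left out. Col1a2 and Fbn1 were not tested among probes above background on all arrays. Leaving aside no filter on dim probes and the replicate block, 8 of the 10 (not Col1a1 and Fbn1) kept their call under the other settings they were tested in. Normexp used the median spot signal, since a mean signal was not among the columns. Median scaling called 6292 genes (5480 higher, 812 lower), 11 matrix genes higher, and 41 of the genes around the matrix higher, against 3653 (2276 and 1377), 6 and 12. With no filter on dim probes limma called 0 genes in all lists and directions, with 5273 genes at an unadjusted p under 0.05. The matrix median was 0.21 with median scaling, 0.058 with quantile normalization, 0.076 with probes above background on all arrays and −0.073 with no filter.

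With 1 array left out, the count of calls ran from 0 to 2661 (higher 0 to 1702, lower 0 to 959), of matrix genes higher from 0 to 4 and lower from 0 to 3, and of genes around the matrix from 0 to 11 and 0 to 10. The matrix median ran from −0.032 to 0.10. The lone array of a group was assumed to vary like the other group. Values near 0 that changed sign, none called, were those of Col8a1 (0.13), Hspg2 (0.12), Lama5 (0.059), Loxl2 (0.13), P4ha2 (0.21), Spp1 (0.18) and Vcan (0.15) with median scaling, and Vcan with normexp (0.0069) and quantile normalization (0.058). Without an array, the changed signs ranged over Col8a1 (−0.20 to 0.033), Loxl2 (−0.20 to 0.025), P4ha2 (−0.057 to 0.041), Spp1 (−0.12 to 0.059) and Vcan (−0.22 to 0.10). The causes were not tested.

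Equal replicate numbers carry no stated link, and the deviations of equal numbers correlated at −0.12. The replicate block called 1836 genes (1071 higher, 765 lower), 2 matrix genes higher and 3 lower, and 8 of the genes around the matrix higher and 7 lower. It ended the calls of Plod1 (adjusted p = 0.0651), Plod2 (0.068), Col6a1 (0.0544), Col18a1 (0.0773) and Col1a1 (0.0983). With crossed numbers, a choice made after seeing the data, the block called 2679 genes, 7 matrix genes higher and 4 lower. No spot was saturated, and the number of arrays limits the precision.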
